A study of Mus musculus with 27 samples.

Results

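Gene expression in mouse embryonic fibroblasts labelled as Foxm1 KO was compared with that in WT fibroblasts grown in the same experiment, called experiment 1 in the labels. The comparison rests on 3 KO and 3 WT libraries, chosen by those labels alone, which are 6 of the 27 libraries of the study, and it covers every gene of the count table as KO minus WT. By its title the study concerns too little FoxM1, a transcription factor, and signalling in cancer through Ect2, RhoA and mDia1, which act on actin at the cell cortex. The sets of libraries used here are KO, KO-NTD and WT fibroblasts of experiment 1, and Het and WT fibroblasts of experiment 2, each with 3 libraries. KO-NTD libraries enter only the estimate of the spread and a few values set side by side, and the labels do not explain what NTD stands for.

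All these fibroblasts are labelled as embryo tissue of strain C57BL/6 and were early-passage cells, dividing without synchronisation and close to confluence when total RNA was taken. No other treatment is given for any of these groups. The labels state neither which part of Foxm1 is missing in KO cells nor how the deletion was made, and they give no embryo age. They also do not say whether the libraries of a group came from separate embryos or cultures. Every p-value measures only the spread between these libraries, and how much of it is technical is not known.

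FoxM1 belongs to the forkhead family and is best known for driving genes that cells switch on in G2 phase and mitosis. It is brought to many of these genes through B-Myb and the MuvB complex, which binds a short promoter element named the cell cycle genes homology region, or CHR, often downstream of CCAAT boxes bound by NF-Y. The genes concerned encode mitotic cyclins, kinases, motor proteins, and parts of the centromere and spindle, while genes of DNA replication are mostly governed by E2F factors earlier in the cycle.

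Foxm1 itself did not pass the test, although the libraries carry the label KO. Its level was 139, 149 and 152 CPM (counts relative to the library's total, with totals scaled by edgeR's TMM factors) in KO 1, 2 and 3, against 134, 140 and 136 CPM in WT 1, 2 and 3. The groups overlapped, and the log2 change was 0.10 with a 95% confidence interval of -0.04 to 0.25 (edgeR adjusted p = 0.565). The gene lies at chr6:128362994-128375886 (GRCm38.p6). The table counts each gene as a whole, so a transcript that lacks an exon would still be counted. None of the 18 genes that encode FoxM1, B-Myb, the MuvB subunits, the pocket proteins and their E2F partners passed the test, and their median log2 change was 0.01, the same as the median of 0.01 over all genes tested.

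Library totals ran between 48772008 and 69517834 assigned counts in KO and between 47812341 and 60156471 in WT. KO 1 stood apart from KO 2 and KO 3. On the first principal component of the experiment, which held 48.7% of the variance, KO 1 lay at -56 and KO 2 and KO 3 at 43.3 and 43, while the second, with 16%, set all 3 KO libraries (-17.5 to -16.3) apart from all 3 WT libraries (22.8 to 30.3). The 15 macrophage markers summed to 11.9, 429 and 296 CPM in KO 1, 2 and 3 and to 108, 62.2 and 84.2 CPM in WT 1, 2 and 3. Xist, the RNA of the inactive X chromosome, was 0.831, 525 and 2 CPM in KO and 419, 506 and 0.427 CPM in WT, so 1 KO and 2 WT libraries carried it. Ddx3y, a gene of the Y chromosome, was 61.5, 0.0995 and 85.7 CPM in KO and 0.083, 0.117 and 91.9 CPM in WT. Each group thus held libraries with Xist and libraries with Ddx3y, so neither group came from 1 embryo alone. The 13 fibroblast markers were abundant in every library, at 38111 to 49047 CPM in KO and 39346 to 48332 CPM in WT. Of the 9 erythroid markers, 6 had no count in any of these 6 libraries, all of them adult globin genes, and so did 3 of 8 lymphocyte markers. The globin genes have similar copies, which the counting may not have separated, so their lack of counts does not show that their RNA was absent.

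**Figure D1:**
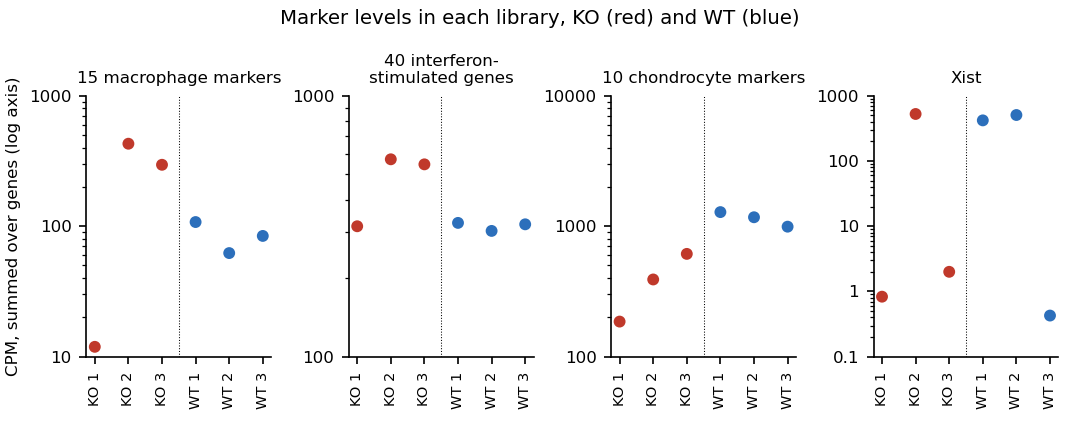
Summed CPM of macrophage markers, interferon-stimulated genes and chondrocyte markers, and the CPM of Xist, in each of the 3 KO and 3 WT libraries, on log axes. KO 1 has the lowest macrophage sum (11.9 CPM) and KO 2 and KO 3 the highest, the chondrocyte sums of all KO libraries lie below those of all WT libraries, and Xist is high in 1 KO and 2 WT libraries.

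A group of mitotic genes was lower in KO fibroblasts than in WT fibroblasts. Of 14551 genes tested, 47 fell (0.323%) and 18 rose (0.124%) in KO at an edgeR adjusted p below 0.05, and 1751 genes (12%) had an unadjusted p below 0.05. The KO and WT libraries of all 65 genes (0.447%) did not overlap, which held for 1290 genes on the lower side (8.87%) and 1232 on the higher side (8.47%) of all genes tested. The median log2 change was -0.68 among the 47 and 0.75 among the 18, and 10 genes fell and 7 rose at least 2-fold. Of the 47, 23 belong to 9 lists of mitotic genes and FoxM1 partners that hold 223 tested genes together. None of those 223 rose, and their median log2 change was -0.01, so most mitotic genes did not pass the test. For each list count below from this test, the shares over all genes tested are the same 0.323% lower and 0.124% higher.

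The counts moved with single libraries. Without KO 1, 66 genes rose and 76 fell; without KO 2, 1 rose and 23 fell; without KO 3, 6 rose and 35 fell. Leaving out WT 1, WT 2 or WT 3 gave 1, 9 or 10 genes that rose and 30, 27 or 34 that fell. With the Xist level of each library as a covariate, an alternative chosen after seeing the data, 6 rose and 32 fell. With the macrophage score as a covariate 228 rose and 220 fell, and DESeq2 called 237 higher and 242 lower. Of the 47 genes that fell, 22 passed with any 1 library left out, and so did 1 of the 18 that rose, Ifi204.

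**Figure D2:**
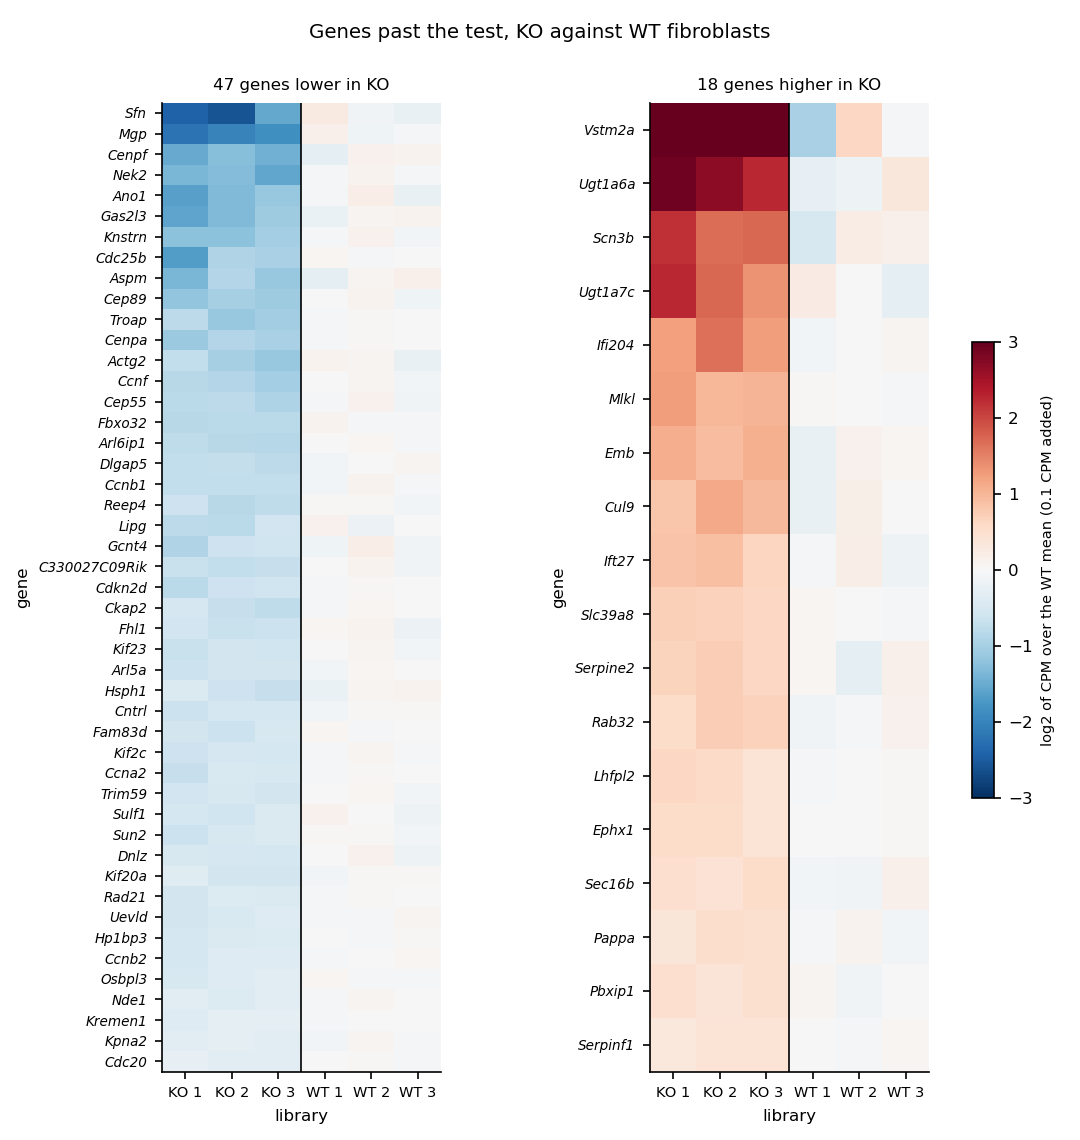
CPM of each of the 47 genes that fell and the 18 that rose, as log2 over the mean of the 3 WT libraries (0.1 CPM added), in 3 KO and 3 WT libraries. All 3 KO libraries lie on the same side of all 3 WT libraries for each of the 65 genes, KO 1 included.

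The cyclins that carry cells into and through mitosis fell together. Ccnb1, which encodes cyclin B1, the activating partner of Cdk1, was 90.3, 89.9 and 90.7 CPM in KO and 143, 163 and 145 CPM in WT, which gives a log2 change of -0.74 with an SE of 0.05 (edgeR adjusted p = 0.000866). The KO libraries were nearly equal and all lay below the lowest WT library. Ccnf, the F-box protein cyclin F, was 37.8, 36.5 and 32.8 CPM in KO and 67.4, 70.6 and 62.8 CPM in WT (log2 change -0.91, edgeR adjusted p = 0.00359). Ccna2, cyclin A2, fell by 0.54 on the log2 scale (108, 126 and 125 CPM in KO, 171, 178 and 175 CPM in WT) and Ccnb2, cyclin B2, by 0.43 (46.7, 51.2 and 51.5 CPM in KO, 64.6, 66.8 and 70.2 CPM in WT). With Cdk1 itself, 4 of 7 cyclin and kinase genes fell, with a median of -0.43. Cdk1 was 121, 126 and 122 CPM in KO and 135, 145 and 133 CPM in WT, which did not overlap but did not pass (log2 change -0.16, edgeR adjusted p = 0.281). Of the 10 phosphatases and inhibitory kinases that set the activity of Cdk1, Cdc25b, an activating phosphatase, was the 1 that fell, at 15.1, 25.5 and 24.5 CPM in KO and 49.9, 47 and 47.3 CPM in WT (log2 change -1.15, edgeR adjusted p = 0.0369). KO 1 was the lowest of its libraries. Cdc25b shares 92 exon bases with Spef1 on the other strand, which the library kit cannot separate, and Spef1 had a log2 change of -0.34 (edgeR adjusted p = 0.601). Ccna2 likewise shares 510 exon bases with Exosc9 on the other strand, and Exosc9 had a log2 change of -0.01 (edgeR adjusted p = 0.976).

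Calls of this group that ended with 1 library left out were those of Cdc25b (any except KO 1), Ccna2 (KO 2 or any WT library) and Ccnb2 (KO 2 or WT 2). Over all the fits tried, the edgeR or DESeq2 adjusted p reached at most 0.151 for Cdc25b, 0.0763 for Ccna2 and 0.0726 for Ccnb2, and it stayed at or below 0.028 for Ccnf and 0.0166 for Ccnb1.

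Among the mitotic kinases 1 of 19 genes fell, Nek2, which encodes a centrosomal kinase that helps the centrosomes part. It was 19.9, 20.8 and 17.3 CPM in KO and 49, 54.6 and 49.9 CPM in WT, and the log2 change was -1.41 with an SE of 0.08 (edgeR adjusted p = 0.000442). Every KO library lay well below every WT library. Plk1, the polo-like kinase, was 110, 104 and 110 CPM in KO and 115, 114 and 108 CPM in WT, with overlapping groups (log2 change -0.06, edgeR adjusted p = 0.656). Aurka, the Aurora A kinase, chosen after its values were seen, was 84.5, 74.8 and 77.6 CPM in KO and 76, 84.8 and 75.8 CPM in WT (log2 change 0.00). The kinase list had a median of 0.00. Haspin, under its older symbol Gsg2, and the Aurora B partner Incenp had log2 changes of 0.18 and 0.11 and did not pass (edgeR adjusted p = 0.493 and 0.565).

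**Figure D3:**
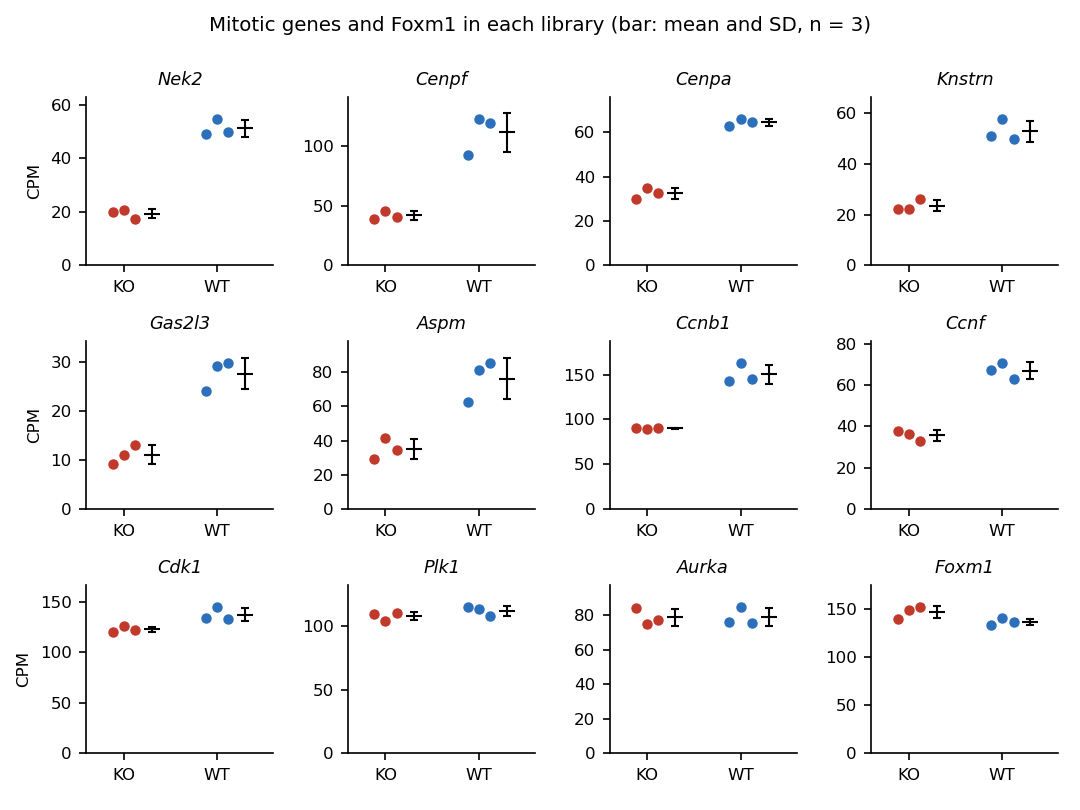
CPM of 11 mitotic genes and Foxm1 in the 3 KO libraries (red, left) and the 3 WT libraries (blue, right), each panel from 0, with the mean and SD (n = 3). Nek2, Cenpf, Cenpa, Knstrn, Gas2l3, Aspm, Ccnb1 and Ccnf are lower in every KO library than in any WT library, while Plk1, Aurka (chosen after its values were seen) and Foxm1 overlap between the groups.

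At the centromere, 3 of 42 tested genes fell. Cenpa, the histone H3 variant that marks centromeres, was 29.9, 34.7 and 32.6 CPM in KO and 62.9, 65.9 and 64.7 CPM in WT (log2 change -0.99 ± 0.06 SE, edgeR adjusted p = 0.000442). Cenpf, a large kinetochore protein made in G2, was 39.1, 45.9 and 40.7 CPM in KO and 92.4, 123 and 119 CPM in WT (log2 change -1.41 ± 0.11 SE, edgeR adjusted p = 0.00141). Knstrn, a kinetochore protein that helps sister chromatids part, was 22.4, 22.3 and 26 CPM in KO and 50.9, 57.7 and 49.9 CPM in WT (log2 change -1.16, edgeR adjusted p = 0.000992). None of these groups overlapped, and all of these calls held with any 1 library left out. The other centromere genes did not follow, since the list's median was 0.04 and 10 of its members lay higher in all KO libraries than in all WT libraries, against 6 lower, where 8.47% of all genes tested lay higher and 8.87% lower without overlap.

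Spindle and spindle pole genes held the most calls of any mitotic list, with 9 of 30 lower in KO, none higher and a median of -0.02, where 0.323% of all genes tested fell. Gas2l3, which links actin filaments to microtubules, was 9.23, 11 and 13.2 CPM in KO and 24, 29.1 and 29.8 CPM in WT (log2 change -1.31, edgeR adjusted p = 0.00764; 0.0584 at most over the fits tried, without KO 2). Aspm, which focuses spindle poles, was 29.5, 41.3 and 34.7 CPM in KO and 62.5, 80.8 and 85.1 CPM in WT (log2 change -1.11, edgeR adjusted p = 0.017; not past the test without KO 3, WT 2 or WT 3). Dlgap5, known as HURP, which bundles spindle microtubules near chromosomes, was 38.2, 39.1 and 37 CPM in KO and 60.9, 63.9 and 67.4 CPM in WT (log2 change -0.75, edgeR adjusted p = 0.000866). In each of these genes all KO libraries lay below all WT libraries. The centriolar gene Cep89 fell by 1.09 on the log2 scale, Troap by 0.99, the abscission gene Cep55 by 0.84, Ckap2 by 0.65, Fam83d, which anchors casein kinase on the spindle, by 0.56 and the importin gene Kpna2 by 0.31. The Kpna2 call was lost without each single library other than KO 1, and that of Ckap2 without KO 2 or WT 2.

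Of 17 mitotic kinesins 3 fell. Kif23, the motor of the centralspindlin complex, was 63.4, 68.3 and 67 CPM in KO and 100, 107 and 95 CPM in WT (log2 change -0.61, edgeR adjusted p = 0.00359). Kif2c, which takes microtubules apart at kinetochores, fell by 0.55 and Kif20a, which moves to the spindle midzone, by 0.48 on the log2 scale. Kif20a shares 1271 exon bases with Cdc23 on the other strand, and Cdc23 had a log2 change of -0.04; its call was lost without KO 2, KO 3, WT 2 or WT 3. Kif18b had lower values in all KO libraries (34.3, 33.5 and 32.8 CPM, against 41.9, 43.9 and 41.3 CPM in WT) but did not pass (log2 change -0.34, edgeR adjusted p = 0.0707; DESeq2 adjusted p = 0.00069).

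Of 28 genes of the anaphase promoting complex, securin and cohesin, 2 fell. Rad21, the cohesin subunit cut by separase at anaphase, was 190, 208 and 206 CPM in KO and 271, 287 and 275 CPM in WT (log2 change -0.46, edgeR adjusted p = 0.00724). Cdc20, which activates the anaphase promoting complex, was 119, 113 and 114 CPM in KO and 141, 146 and 139 CPM in WT (log2 change -0.30, edgeR adjusted p = 0.0305). The groups of both genes were apart, and the call of Cdc20 was lost without each single library other than KO 1. Cdc20 shares 53 exon bases with Elovl1 on the other strand, which had a log2 change of 0.04. Ube2c, the ubiquitin-conjugating enzyme of the complex, was 79, 81.9 and 77.6 CPM in KO and 92.7, 95.7 and 92.4 CPM in WT (log2 change -0.24, edgeR adjusted p = 0.0752). The median of the list was -0.03.

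The promoters of the genes that fell hold the CHR and the CCAAT box more often than promoters at large, and 6 are shown for that reason, with that of Cdk1, a gene with both elements that did not pass. Each run is 145 bases of RefSeq's GRCm38.p6 sequence on the gene's strand, 120 before and 25 from the start site on. Capitals mark the CHR (TTTGAA), its variant (TTCGAA) and the CCAAT box, which reads ATTGG where it lies on the other strand.
Cenpf (chr1:189688062-189688206, minus strand): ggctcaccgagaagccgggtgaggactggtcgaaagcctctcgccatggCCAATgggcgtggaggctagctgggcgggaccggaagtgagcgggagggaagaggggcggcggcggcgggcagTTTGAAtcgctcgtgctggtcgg
Cenpa (chr5:30666766-30666910, plus strand): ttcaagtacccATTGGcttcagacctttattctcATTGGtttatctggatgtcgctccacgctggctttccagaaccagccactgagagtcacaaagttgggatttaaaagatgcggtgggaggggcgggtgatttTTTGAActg
Gas2l3 (chr10:89443943-89444087, minus strand): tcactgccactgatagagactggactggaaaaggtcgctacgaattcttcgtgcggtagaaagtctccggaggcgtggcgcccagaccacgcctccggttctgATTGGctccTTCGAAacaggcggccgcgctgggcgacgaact
Cdc25b (chr2:131186828-131186972, plus strand): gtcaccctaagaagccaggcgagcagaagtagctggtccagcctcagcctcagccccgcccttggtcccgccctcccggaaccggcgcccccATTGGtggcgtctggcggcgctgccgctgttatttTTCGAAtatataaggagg
Ccnb2 (chr9:70421530-70421674, minus strand): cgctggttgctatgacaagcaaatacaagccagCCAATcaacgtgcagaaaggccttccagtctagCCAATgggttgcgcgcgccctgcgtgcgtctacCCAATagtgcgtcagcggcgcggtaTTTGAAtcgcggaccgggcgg
Nek2 (chr1:191821353-191821497, plus strand): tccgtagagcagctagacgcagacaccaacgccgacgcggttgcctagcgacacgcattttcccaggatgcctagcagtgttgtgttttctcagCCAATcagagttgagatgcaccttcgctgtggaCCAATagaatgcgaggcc
Cdk1 (chr10:69352888-69353032, minus strand): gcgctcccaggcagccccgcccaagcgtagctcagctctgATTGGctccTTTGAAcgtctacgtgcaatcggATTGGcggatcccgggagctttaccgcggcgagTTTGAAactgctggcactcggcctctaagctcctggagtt
In the first 5 of these runs the CHR or its variant began between 8 bases before and 17 bases after the start site. This position does not hold for all genes that fell. Counted from the start site, the CHR began at 3 in Kif23 and 7 in Aspm, but at -114 in Cep89 and -103 in Kif2c. Nek2 had 2 CCAAT boxes and no CHR in this window, and Cdk1 had 2 CHR elements and 2 CCAAT boxes.

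Over windows of 250 bases before to 50 after the start site, searched on both strands, the CHR or its variant was present in 19 of 36 genes that fell and had a window (52.8%), against 16.4% of 11376 tested genes with a window. Among mitotic genes it was present in 15 of 19 that fell (78.9%) and in 75 of 166 that did not pass (45.2%). Genes that fell but stand in no mitotic list had it in 4 of 17 (23.5%), and genes that rose in 4 of 15 (26.7%). The CCAAT box was present in 83.3% of genes that fell, 46.7% of those that rose and 42.7% of all. Both together were found in 44.4% of genes that fell and 8.10% of all. The forkhead motif TGTTTAC was in none of the 36 windows and in 3.05% of all, its shorter core TAAACA was in 11.1% and 10.5%, and the E2F motif TTCCCGC in 11.1% and 9.54%. A match describes these letters in this window and does not show binding, and a missing match says nothing of the factor.

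**Figure D4:**
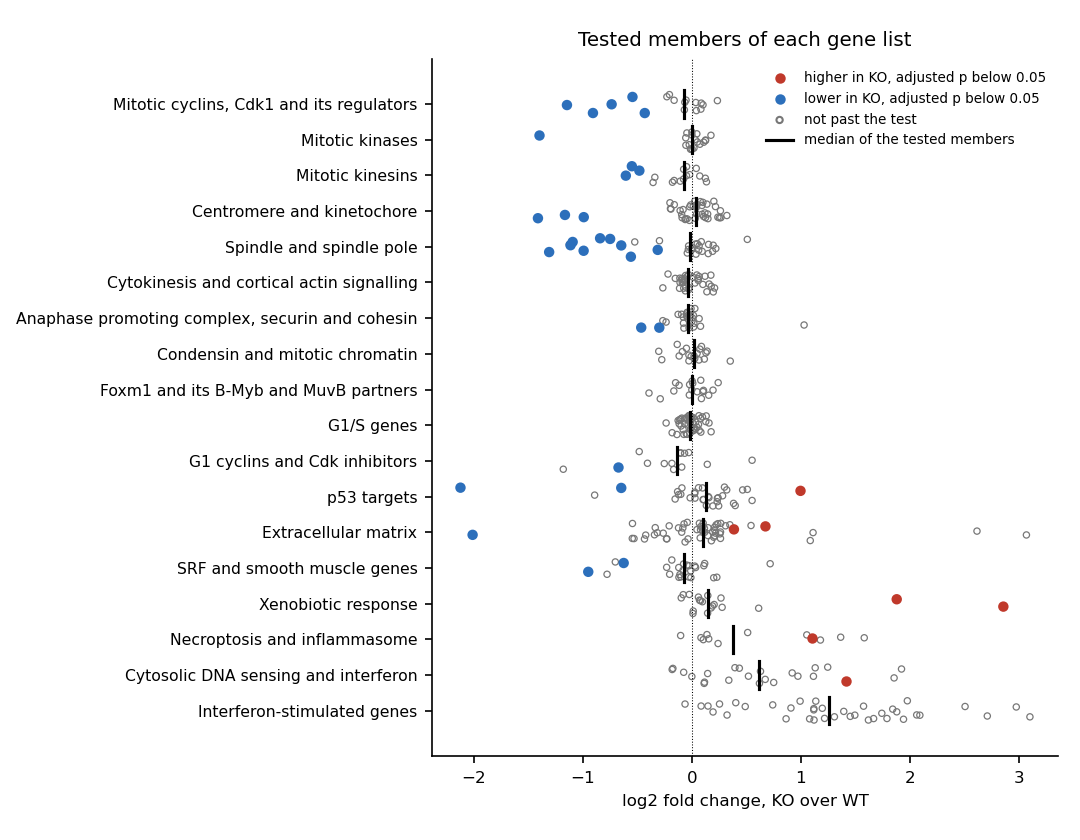
Log2 change of KO over WT for each tested member of 18 gene lists. Filled points passed the test (blue lower, red higher), open points did not, and bars are list medians. Members of the mitotic lists that fell stand apart from list medians close to 0, no member of the cytokinesis, condensin, FoxM1 partner or G1/S lists passed, and 37 of 38 interferon-stimulated genes lie above 0 with none past the test.

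The genes named in the study's title, and others of cytokinesis, did not pass the test. Ect2, which activates RhoA at the cortex of dividing cells, was 85, 101 and 104 CPM in KO and 96.1, 111 and 102 CPM in WT (log2 change -0.09, edgeR adjusted p = 0.796). Rhoa was 524, 519 and 514 CPM in KO and 563, 545 and 572 CPM in WT, a small difference without overlap (log2 change -0.11, edgeR adjusted p = 0.287; DESeq2 adjusted p = 0.0321). Diap1, the formin mDia1, was 78.6, 67.2 and 63.8 CPM in KO and 58.7, 66 and 63 CPM in WT (log2 change 0.16, edgeR adjusted p = 0.484). None of 34 tested genes of cytokinesis and cortical actin signalling passed in edgeR, their log2 changes ran between -0.27 and 0.21, and DESeq2 called 1. Kif23, Kif20a and Cep55, which also act in cytokinesis, were counted above among kinesins and spindle genes. None of 19 condensin and mitotic chromatin genes passed either, and the proliferation marker Mki67 was 292, 361 and 294 CPM in KO and 328, 416 and 425 CPM in WT (log2 change -0.30, edgeR adjusted p = 0.334).

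Genes of DNA replication and of the G1/S transition did not pass. All 51 had log2 changes between -0.24 and 0.18, with a median of -0.01, and DESeq2 called 1, Uhrf1, which guides maintenance of DNA methylation (138, 153 and 150 CPM in KO, 166, 189 and 165 CPM in WT; DESeq2 adjusted p = 0.0492, edgeR adjusted p = 0.2). Among 14 G1 cyclins and Cdk inhibitors 1 fell, Cdkn2d, an inhibitor of Cdk4 and Cdk6, at 10.6, 12.1 and 12.4 CPM in KO and 18.1, 19.3 and 18.8 CPM in WT (log2 change -0.68, edgeR adjusted p = 0.00764). Its groups did not overlap. Cdkn3, a phosphatase acting on Cdk proteins, was 2.51, 4.93 and 4.55 CPM in KO and 7.95, 9.81 and 9.48 CPM in WT but varied among KO libraries and did not pass (log2 change -1.18, edgeR adjusted p = 0.128). Cdkn1a, the p53 target p21, was 234, 179 and 132 CPM in KO and 130, 133 and 108 CPM in WT (log2 change 0.55, edgeR adjusted p = 0.334). Of 33 p53 targets Cul9 rose and Sfn and Ckap2 fell, with a median of 0.13, and none of 29 repair genes passed, Rad18 being nearest (log2 change 0.23, edgeR adjusted p = 0.0725).

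Of the genes that fell, 24 stand in no mitotic list, and several of them are known to act on dividing cells. Arl6ip1, a protein that shapes endoplasmic reticulum tubules, was 96, 91.2 and 89 CPM in KO and 163, 168 and 155 CPM in WT (log2 change -0.82 ± 0.05 SE, edgeR adjusted p = 0.000442), and the groups were far apart. Reep4, which keeps the endoplasmic reticulum off mitotic chromosomes, was 30.5, 26.4 and 27.7 CPM in KO and 48.4, 48.2 and 44.3 CPM in WT (log2 change -0.74, edgeR adjusted p = 0.00359). The phosphatase inhibitor Cip2a, listed as C330027C09Rik, fell by 0.69 on the log2 scale, the centriolar gene Cntrl by 0.56, the ubiquitin ligase gene Trim59 by 0.53, the nuclear envelope gene Sun2 by 0.52, the chromatin gene Hp1bp3 by 0.46 and Nde1, a dynein regulator, by 0.35. Of these, Sun2 (without KO 2, WT 1 or WT 2) and Nde1 (without any library other than KO 1) lost their call with 1 library left out. Nde1 shares 77 exon bases with Marf1 on the other strand, whose log2 change was -0.05.

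The 2 largest falls were those of Sfn and Mgp, which also stand in no mitotic list. Mgp, matrix Gla protein, an inhibitor of calcification made by cartilage and vessels, was 34.7, 39.6 and 44.9 CPM in KO and 179, 145 and 157 CPM in WT (log2 change -2.01 ± 0.24 SE, edgeR adjusted p = 0.0127). Each KO library was far below each WT library, and the call was lost without KO 2 or WT 1 (edgeR adjusted p up to 0.0845). The 10 chondrocyte markers, of which Mgp is 1, summed to 186, 391 and 614 CPM in KO and 1282, 1171 and 992 CPM in WT, a sum made up mostly of Col2a1 in WT. Without Col2a1 the sums were 96.8, 130 and 161 CPM in KO and 287, 288 and 267 CPM in WT. These 9 markers still include Mgp itself, the largest of them in each WT library. The lower KO sums therefore do not show a fall of the other markers. Matn1 had 6 counts over these libraries and the other markers had counts in each of them, and their part in the result was not tested. Among them the cartilage collagen Col2a1 was 89, 260 and 453 CPM in KO and 995, 883 and 725 CPM in WT (log2 change -1.70, edgeR adjusted p = 0.306), the proteoglycan Acan had a log2 change of -1.45 (edgeR adjusted p = 0.2), and Sox9, the transcription factor of cartilage, was 40.2, 42.7 and 45.6 CPM in KO and 31.8, 32.3 and 35.4 CPM in WT (log2 change 0.37, edgeR adjusted p = 0.0651). Mgp was the 1 chondrocyte marker that passed, and 3 of the 9 tested lay above 0, Sox9, Hapln1 and Comp, the last at 5.05, 7.79 and 13.8 CPM in KO and 1.87, 2.45 and 4.82 CPM in WT (log2 change 1.54, edgeR adjusted p = 0.334). In bulk RNA, fewer cells of a type and less RNA per cell cannot be told apart.

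Sfn, the 14-3-3 protein stratifin, known from epithelia and as a p53 target, was 4.83, 4.27 and 8.96 CPM in KO and 31.7, 24.4 and 22.5 CPM in WT (log2 change -2.12 ± 0.31 SE, edgeR adjusted p = 0.0308). The call held without KO 3 and was lost without any other single library (edgeR adjusted p up to 0.127). The 10 epithelial markers, Sfn included, summed to 27.6, 32.4 and 32.2 CPM in KO and 66.1, 48.9 and 46.5 CPM in WT, but without Sfn the other 9 summed to 22.7, 28.1 and 23.2 CPM in KO and 34.4, 24.5 and 24 CPM in WT, which overlapped. Of the 10 markers 7 lay above 0, with a median log2 change of 0.58, and none but Sfn passed. Ano1, a calcium-gated chloride channel, was 2.27, 2.83 and 3.21 CPM in KO and 7.06, 8.31 and 6.16 CPM in WT (log2 change -1.37, edgeR adjusted p = 0.0206; lost without KO 2, WT 1 or WT 2). The groups of both genes were apart.

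Of 25 SRF targets and smooth muscle genes 2 fell. Actg2, the enteric smooth muscle actin, was 177, 150 and 135 CPM in KO and 322, 316 and 254 CPM in WT (log2 change -0.95, edgeR adjusted p = 0.0431), a call lost without each library other than KO 1. Fhl1, a LIM domain protein of muscle, was 197, 185 and 186 CPM in KO and 304, 313 and 259 CPM in WT (log2 change -0.63, edgeR adjusted p = 0.0142), lost without KO 2, KO 3, WT 1 or WT 2. The list's median was -0.08, and Csrp1 (509, 483 and 502 CPM in KO, 609, 574 and 570 CPM in WT) came near the threshold (log2 change -0.23, edgeR adjusted p = 0.0707). The 8 smooth muscle markers, Actg2 among them, summed to 6125, 5431 and 5361 CPM in KO and 6345, 6351 and 6038 CPM in WT, with KO 1 the nearest to WT.

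Other genes that fell were Fbxo32, the ubiquitin ligase subunit atrogin-1, at 32.6, 33.3 and 33.1 CPM in KO and 62.6, 55.8 and 56.8 CPM in WT (log2 change -0.82, edgeR adjusted p = 0.00773; 0.0573 without KO 2), and the Golgi GTPase gene Arl5a, at 101, 108 and 109 CPM in KO and 151, 166 and 160 CPM in WT (log2 change -0.59, edgeR adjusted p = 0.00181). The lipase gene Lipg fell by 0.72 on the log2 scale, the glycosyltransferase gene Gcnt4 by 0.70, the chaperone gene Hsph1 by 0.58, the heparan sulfate sulfatase gene Sulf1 by 0.52, Dnlz, a partner of the mitochondrial Hsp70, by 0.50, Uevld by 0.46, Osbpl3 by 0.39 and Kremen1, a Dickkopf receptor, by 0.33. The calls of the genes from Lipg on were each lost without KO 2 and without at least 1 WT library. Dnlz shares 117 exon bases with Gpsm1 on the other strand, which had a log2 change of -0.31 (edgeR adjusted p = 0.201).

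Among the genes that rose, detoxifying enzymes had large changes. Ugt1a6a was 4.52, 3.82 and 2.84 CPM in KO and 0.415, 0.451 and 0.671 CPM in WT (log2 change 2.86 ± 0.37 SE, edgeR adjusted p = 0.017), from 651 counts over the KO libraries and 80 over the WT libraries. Ugt1a7c was 9.77, 6.68 and 5.11 CPM in KO and 2.35, 1.94 and 1.57 CPM in WT (log2 change 1.88, edgeR adjusted p = 0.035). Both belong to the Ugt1a locus on chromosome 1, whose genes use separate first exons and share the rest, and the pair shares 2170 exon bases, so reads of the shared exons cannot be assigned to either and which of them rose is uncertain. KO 1 was the highest library for both. Both calls were lost without KO 2, WT 1 or WT 2, and that of Ugt1a7c also without WT 3. Ephx1, the microsomal epoxide hydrolase, was 87.2, 88 and 79.7 CPM in KO and 59.5, 59 and 61 CPM in WT (log2 change 0.51, edgeR adjusted p = 0.00764). Of 19 tested xenobiotic response genes, the 2 Ugt1a genes were the ones that rose, and the median was 0.15.

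The largest rise on the log2 scale was that of Vstm2a, an immunoglobulin-domain gene with low counts. It was 2.92, 2.72 and 2.55 CPM in KO and 0.0623, 0.384 and 0.203 CPM in WT (log2 change 3.62 ± 0.55 SE, edgeR adjusted p = 0.0308), from 478 counts over the KO libraries and 36 over the WT libraries. Scn3b, a sodium channel subunit, had 109 counts over the KO libraries and 16 over the WT libraries (log2 change 2.63, edgeR adjusted p = 0.0444), and its call was lost without any 1 library. Emb, embigin, which escorts lactate transporters to the membrane, was 79, 70.8 and 78.3 CPM in KO and 32.2, 41 and 39 CPM in WT (log2 change 1.02, edgeR adjusted p = 0.0305), and its call was also lost without any 1 library (edgeR adjusted p up to 0.127) although its groups were far apart. The Vstm2a call was lost without KO 2, KO 3, WT 1 or WT 3.

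Of 55 extracellular matrix genes, the secreted serpins Serpinf1 and Serpine2 rose and Mgp fell, with a median of 0.10. Serpine2, protease nexin-1, was 107, 113 and 103 CPM in KO and 70.7, 56.4 and 75.6 CPM in WT (log2 change 0.68, edgeR adjusted p = 0.0305; lost without KO 2, KO 3 or WT 1). Serpinf1, pigment epithelium-derived factor, was 622, 662 and 664 CPM in KO and 500, 475 and 515 CPM in WT (log2 change 0.39, edgeR adjusted p = 0.0305; lost without each library other than KO 1). The basement membrane collagen gene Col4a1 had a log2 change of -0.54 and did not pass (edgeR adjusted p = 0.101). The cullin gene Cul9 rose by 0.998 on the log2 scale, Ift27, which serves transport along cilia, by 0.81, Slc39a8, a zinc importer, by 0.69, the GTPase gene Rab32 by 0.66, Lhfpl2 by 0.54, Sec16b by 0.50 and the protease gene Pappa, which cuts an IGF binding protein, and Pbxip1 by 0.46 each.

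Among genes that sense cytosolic DNA 1 rose in KO, and several others had high values in KO 2 and KO 3 with KO 1 nearer to WT. Ifi204, a p200 family gene of innate DNA sensing, was high in all KO libraries, at 14, 18.9 and 14.4 CPM, against 5.6, 5.89 and 6.24 CPM in WT (log2 change 1.41 ± 0.14 SE, edgeR adjusted p = 0.00406). Its family has similar copies at chromosome 1, which the counting may not have separated. Mnda, another member, was 19.6, 13.3 and 14.4 CPM in KO and 8.92, 9.30 and 9.84 CPM in WT (log2 change 0.75, edgeR adjusted p = 0.073; 0.0336 without KO 1). Mndal was 1.54, 5.09 and 3.87 CPM in KO and 0.851, 0.801 and 1.12 CPM in WT, and Ifi203 was 2.72, 6.64 and 6.68 CPM in KO and 1.33, 1.35 and 1.75 CPM in WT. These 2 genes did not overlap between groups but had their lowest KO value in KO 1 and did not pass (edgeR adjusted p = 0.128 and 0.134; 0.0166 and 0.0336 without KO 1). Of 23 DNA sensing genes 1 rose, with a median of 0.62, and 9 lay higher in KO without overlap, against 8.47% of all genes tested. DESeq2 called 5 higher, where 1.7% of all genes rose. In edgeR, 4 were higher without KO 1 and 4 with the macrophage score as covariate, where 0.446% and 1.57% of all genes rose. None was called lower in these fits.

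Of 38 interferon-stimulated genes none passed in edgeR, although 37 lay above 0 and the median log2 change was 1.26. Lgals3bp was 29.4, 78.5 and 75.9 CPM in KO and 24.7, 19.4 and 25.8 CPM in WT (log2 change 1.39, edgeR adjusted p = 0.148), and Irf7, a transcription factor that amplifies the interferon response, was 0.791, 5.03 and 6.05 CPM in KO and 1.12, 0.968 and 1.14 CPM in WT (log2 change 1.88, edgeR adjusted p = 0.279). In both, KO 2 and KO 3 were high and KO 1 lay near WT. The summed level of all 40 genes of the list showed the same order, at 316, 571 and 546 CPM in KO and 326, 303 and 322 CPM in WT. Without KO 1, edgeR called 7 of them higher, where 0.446% of all genes rose and 0.514% fell. With the macrophage score of each library as a covariate edgeR called 10, where 1.57% of all genes rose and 1.51% fell, and DESeq2 called 5, where 1.7% of all genes rose and 1.73% fell. The macrophage markers had the same order over the KO libraries (11.9, 429 and 296 CPM), none of the 15 was at 0 in every library, and with the score in the fit the list's median was 0.92.

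Mlkl, which permeabilises the membrane in necroptosis, rose in all KO libraries. It was 15, 12.6 and 12.8 CPM in KO and 6.48, 6.28 and 6.10 CPM in WT (log2 change 1.10 ± 0.15 SE, edgeR adjusted p = 0.0218), with the highest value in KO 1, the KO library with the lowest sum of macrophage markers. The call held without KO 1 (log2 change 1.01, edgeR adjusted p = 0.0314) and was lost without any other library (edgeR adjusted p up to 0.115). Ripk3, the kinase that activates Mlkl protein, was 101, 102 and 105 CPM in KO and 84.5, 80.7 and 96.2 CPM in WT and did not pass (log2 change 0.24, edgeR adjusted p = 0.201). Of 12 tested necroptosis and inflammasome genes 1 rose, Mlkl, with a median of 0.38.

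Metabolic and stress lists had no gene past the edgeR test. All 24 cholesterol synthesis genes lay below 0, with a median of -0.16, and 2 of the 24 did not overlap between groups, both lower in KO, as did 8.87% of all genes tested. Of 26 endoplasmic reticulum stress genes 24 lay below 0, also with a median of -0.16, and 9 did not overlap, all lower in KO, against 8.87% of all genes. DESeq2 called 5 of the 26 lower, where it called 1.73% of all genes lower, and edgeR called 2 without KO 1, where 0.514% of all genes fell. Among these the chaperone gene Hyou1 was 288, 242 and 262 CPM in KO and 317, 332 and 349 CPM in WT (log2 change -0.33, edgeR adjusted p = 0.109; 0.0336 without KO 1). Car9, a hypoxia target, was 4.6, 3.72 and 3.16 CPM in KO and 1.22, 0.885 and 1.79 CPM in WT without overlap (log2 change 1.56, edgeR adjusted p = 0.0707), but the median of the 28 glycolysis and hypoxia genes was 0.12, and -0.03 without KO 1. None of 32 oxidative phosphorylation genes passed, and their log2 changes lay between -0.09 and 0.09. Nor did any of 22 YAP targets, 24 secreted genes of senescent cells, 21 BMP, TGF-beta and Notch targets, 37 Hox genes, 24 imprinted genes, 26 other forkhead genes, 20 immediate early genes or 34 ribosomal protein genes, with medians between -0.13 and 0.24.

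The genes that neighbour Foxm1 did not pass the main edgeR test. Of 191 genes within 5 Mb on either side, Foxm1 included, 77 were tested and none was called by edgeR. An unadjusted edgeR p below 0.05 was found for 16 (20.8%, against 12% of all genes tested), and the median log2 change was -0.00. Tspan11, which encodes a tetraspanin, was 50.1, 37.7 and 44.2 CPM in KO and 22.8, 27.4 and 24.3 CPM in WT (log2 change 0.83, edgeR adjusted p = 0.071). The potassium channel gene Kcna6 was 1.68, 2.08 and 1.82 CPM in KO and 3.90, 4.02 and 4.43 CPM in WT (log2 change -1.15, edgeR adjusted p = 0.089). Both were apart between the groups and did not pass. Over 13 other fits each passed in 2, with a lowest edgeR or DESeq2 adjusted p of 2.8e-05 for Tspan11 and 0.00063 for Kcna6. Among the 65 genes that passed, the pair Ugt1a6a and Ugt1a7c was the only one within 1 Mb of each other.

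KO-NTD fibroblasts of the same experiment are set beside KO and WT for the genes above, without a comparison, since they share the fit. Foxm1 was 364, 390 and 333 CPM in KO-NTD. Cenpf was 43.2, 44.5 and 46.4 CPM, Nek2 21.4, 19 and 20.7 CPM and Cenpa 33.7, 31.5 and 32.5 CPM in KO-NTD, close to the KO values given above and below all WT values. Mgp was 17.4, 36 and 27.5 CPM in KO-NTD, and Vstm2a 0.552, 1.26 and 0.908 CPM. The KO-NTD mean lay between those of KO and WT for 26 of the 47 genes that fell and for 16 of the 18 that rose. These genes were picked for KO and WT lying apart in the same fit. A further group can fall between them through that choice alone, and whether NTD changed these genes was not tested.

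Whether the KO effect differs from that of the Het genotype was asked with the Het and WT fibroblasts of experiment 2, which share no library with experiment 1. In a joint fit of these 12 libraries, the KO effect differed from the Het effect for 47 of 14510 genes (0.324%, edgeR adjusted p below 0.05), with the KO effect more positive for 22 (0.152%) and more negative for 25 (0.172%). The same fit called 0.503% of all genes higher and 0.799% lower in KO. All 47 genes that fell in KO also had a negative log2 change in Het, and 33 of them passed there, where 3.25% of all genes fell. Of the 18 genes that rose in KO, 13 had a positive log2 change in Het and 9 passed, where 2.55% of all genes rose. Het against WT is also a comparison of another experiment, and genotype and experiment cannot be told apart in the difference between the effects.

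Of the mitotic lists, 8 genes differed between the effects, 5 with a larger fall in KO and 3 that fell in Het and did not pass in KO; Reep4, outside those lists, also fell more in KO. Cenpf fell by 1.43 on the log2 scale in KO and by 0.40 in Het, a difference of -1.03 (edgeR adjusted p = 0.0186). For Nek2 the log2 changes were -1.42 in KO and -0.60 in Het, a difference of -0.82 (edgeR adjusted p = 0.0186), and for Cenpa -1.01 in KO and -0.36 in Het, a difference of -0.65 (edgeR adjusted p = 0.0163). Cep89, Dlgap5 and Reep4 differed in the same direction, by -0.88, -0.42 and -0.62. In experiment 2, Cenpf was 57, 59.98 and 54.7 CPM in Het and 81.2, 72.9 and 72.3 CPM in WT, so its Het and WT libraries were also apart. Of the 47 genes, 4 had a smaller fall in KO than in Het, and for 1 of these, Arl5a, the difference passed (log2 changes -0.60 in KO and -1.24 in Het, edgeR adjusted p = 0.00279). The 3 mitotic genes that fell in Het and did not pass in KO were Plk1, with log2 changes of -0.07 in KO and -0.53 in Het (difference 0.46, edgeR adjusted p = 0.0186), and, named after their values were seen, Prc1, which bundles microtubules of the spindle midzone (0.17 in KO, -0.38 in Het, edgeR adjusted p = 0.0392), and the spindle kinesin gene Kif11 (-0.04 in KO, -0.51 in Het, edgeR adjusted p = 0.0496). Of the 18 genes that rose, 5 had a negative log2 change in Het, and for 1 of these, Serpine2, the difference passed (0.66 in KO and -0.83 in Het, edgeR adjusted p = 0.0392). With each of the 12 libraries left out in turn, the difference passed in all 12 fits for Arl5a, in 10 for Cenpa, in 9 each for Nek2 and Cep89, in 5 each for Cenpf and Plk1, in 3 each for Reep4, Prc1 and Kif11 and in 2 each for Dlgap5 and Serpine2. Cenpa lost its call without Het 2 or Het 3, and Nek2 and Cep89 also without WT 2 of experiment 2. For the other mitotic genes a difference between KO and Het was not detected by this test, which does not show that the effects were equal.

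**Figure D5:**
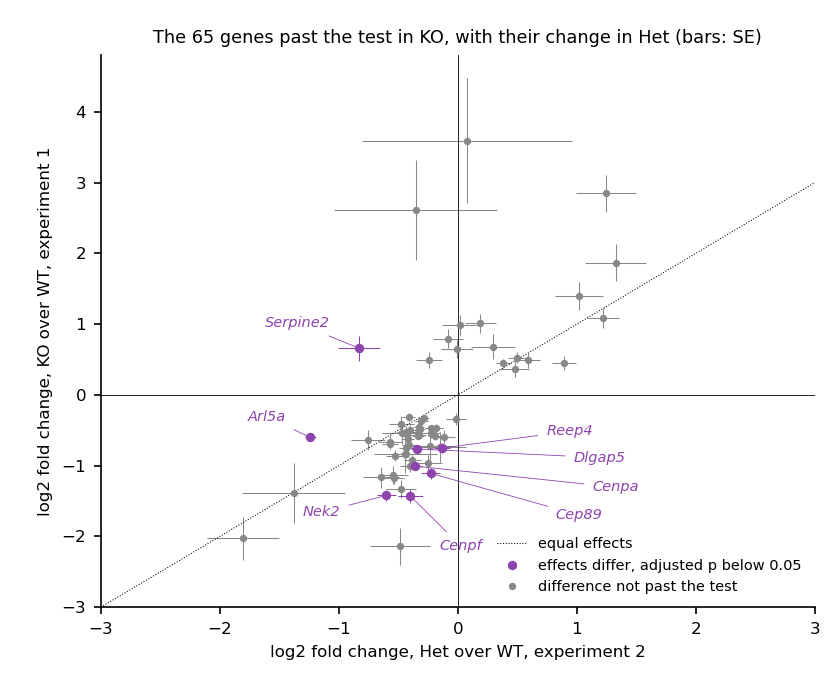
Log2 change of KO over WT in experiment 1 (vertical axis) against that of Het over WT in experiment 2 (horizontal axis) for the 65 genes that passed in KO, from the joint fit, with bars for the SE and a dotted line for equal effects. Purple genes differ between the effects; all 47 genes that fell in KO lie below 0 on both axes, and Serpine2 is the gene that differs with opposite signs in KO and Het.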

How the data were processed

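RNA was sequenced from fibroblast cultures with libraries of the unstranded TruSeq v2 kit (per the labels' protocols). The authors deposited raw counts per gene symbol in 1 table of 27 columns. Per the submitters' processing notes the tools include TopHat2 2.0.14, Bowtie2 2.2.6 and featureCounts 1.4.6 of the Subread package, with mm10; the annotation and counting options are not given in the sources used here. Even numbers made up 61.5% to 64.1% of the counts between 1 and 30 in KO and WT libraries, so a fragment may often count for more than 1 and count-based precision may be overstated.

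The members and gene lists were chosen with earlier results of these data known. KO and WT were compared within the 9 fibroblast libraries of experiment 1 (KO, KO-NTD, WT) with edgeR 4.0.16 (R 4.3.3): filterByExpr left 14551 of 24062 symbols, TMM scaling, robust quasi-likelihood F test (two-sided), Benjamini-Hochberg adjustment over all genes tested, threshold 0.05, with 6 residual degrees of freedom. CPM are scaled by TMM. Differences from Het were tested as an interaction in 12 libraries (14510 genes, 8 residual degrees of freedom). An exact permutation test of 3 against 3 cannot go below p = 0.1 and was not used. The biological coefficient of variation was 0.204, and no interval covers more than the spread between libraries. The scripts were tested on simulated data.

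Genes were named by rule: Foxm1, Ect2, Rhoa and Diap1; any gene past the threshold; up to 6 genes of each list by lowest p; up to 10 genes by lowest p for the difference from Het; and genes within 5 Mb of Foxm1 past an unadjusted p of 0.05. Promoter sequence and gene positions come from RefSeq tables of GRCm38.p6, and exon overlaps from the GENCODE annotation of GRCm38. Of the symbols, 22550 matched RefSeq directly and 23901 with synonyms. Alternatives were DESeq2 1.42.0 and its size factors, no filter on low counts, KO and WT libraries alone, a replicate block, macrophage score as covariate, each library left out and, chosen after seeing the data, Xist as covariate. Lung libraries and those of other fibroblast groups were not used. Some genes that the naming rule picks are not reported here.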

Additional observations from a re-analysis of the deposited data

Results flagged for a closer look

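The genes below were singled out because the KO effect of experiment 1 and the Het effect of experiment 2 differed in the joint edgeR fit. They are the 10 with the lowest p, those among the 65 genes past the test in KO and those of the mitotic lists. Each difference is the KO effect minus the Het effect on the log2 scale.

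Among genes of mitosis and its surroundings the difference was -1.03 for Cenpf, -0.82 for Nek2, -0.65 for Cenpa, -0.88 for Cep89, -0.42 for Dlgap5 and -0.62 for Reep4, with a fall in KO larger than the log2 change in Het in each case. It was 0.46 for Plk1, 0.55 for Prc1 and 0.47 for Kif11, each of which passed in Het and not in KO. It was 0.64 for the GTPase gene Arl5a, which fell in both and more in Het. Serpine2 had a difference of 1.49, with log2 changes of 0.66 in KO and -0.83 in Het.

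Some genes that did not pass in KO against WT in the fit of experiment 1 alone also differed. Their log2 changes are from the joint fit, in which Cx3cl1 and Cdkn2b did pass in KO (edgeR adjusted p = 0.0122 and 0.0402). Ucp2, a mitochondrial carrier, had a difference of -2.63, with log2 changes of 0.70 in KO and 3.33 in Het. Enpp2, the lysophospholipase autotaxin, had a difference of 3.11, with 1.05 in KO and -2.06 in Het. The Wnt co-receptor gene Lrp5 differed by 0.67 (0.17 in KO, -0.50 in Het), Fam107b by 0.83 (-0.23 in KO, -1.05 in Het), the chemokine gene Cx3cl1 by -0.85 (-0.50 in KO, 0.36 in Het), the LIM protein gene Csrp2 by -0.95 (-0.26 in KO, 0.69 in Het) and the Cdk inhibitor gene Cdkn2b by -1.06 (-0.50 in KO, 0.57 in Het). Over the 12 fits that leave out 1 library, the differences of Lrp5, Ucp2 and Arl5a passed in all 12, and those of Dlgap5 and Serpine2 in 2. The KO and Het effects come from separate experiments, and genotype and experiment cannot be told apart in these differences.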

How the results depend on the processing

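The counts of genes past the test depend on the fit. None of the 65 genes changed sign over 13 settings, nor did any of 18 named differences from Het over 16. These genes were picked by tests on the same libraries, and the 65 did not overlap between KO and WT. A change of sign was therefore unlikely from the start, and its absence is no separate evidence for the directions. Where 18 rose and 47 fell in edgeR, DESeq2 gave 237 higher and 242 lower, KO and WT libraries alone 10 and 26, the macrophage score as covariate 228 and 220, and Xist as covariate (chosen after seeing the data) 6 and 32, with 37 of the 65 still past the threshold. Leaving out 1 library gave 1 to 66 higher and 23 to 76 lower. The 23 mitotic genes that fell became 15 to 24 with 1 library left out, 15 of them without WT 2 or without KO 2. The 47 differences from Het became 727 in DESeq2 and 3 to 1571 with 1 library left out, with 1571 without KO 1. Deviations from the group means had correlations of -0.16, -0.05 and 0.18 between same-numbered KO and WT libraries. Between differently numbered ones they ran from -0.28 to 0.20. With 3 libraries per group, these values cannot decide whether the numbers pair the samples. With the number as a replicate block 13 genes rose, 39 fell and 2 differed from Het. The cause of these shifts was not tested. The median log2 change of all genes stayed between -0.00 and 0.01 under each scaling.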
